A study of Danio rerio with 8 samples.

Results

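Proteasome genes were examined in bulk RNA sequencing of zebrafish hearts. The members are the genes whose symbol begins with psm, then a letter from a to g and a digit. Of the 31953 genes in the count table, 54 met this rule, and 53 of them passed the filter on low counts. They comprise 9 genes of the alpha ring (psma), 7 of the constitutive beta ring (psmb1 to psmb7), 6 immunoproteasome and related beta genes (psmb8a, psmb9a, psmb10, psmb11b, psmb12 and psmb13a), 7 base ATPases (psmc), 12 other subunits of the 19S particle (psmd), 6 assembly factors (psmd5, psmd9, psmd10, psmg1, psmg2 and psmg3) and 6 genes for activators and the regulator PI31 (psme and psmf1). The last, psmc3ip, carries the pattern in its symbol but encodes a factor of meiotic recombination and no subunit. The member that did not pass was psmb11b, with 1 read in the first 7 dpi library and 0 in the other libraries. Subunits listed under symbols outside the pattern are not members, and some of them are read below as partners.

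The hearts form 4 groups of 2 libraries. Young hearts came from larvae aged 3 days, about 500 pooled per library, with no treatment. Control hearts were adult, labelled as day 0, and had the vehicle, 0.1% dimethyl sulfoxide (DMSO). Hearts at 3 and at 7 days post injury (dpi) were adult and had received 5 mM metronidazole (MTZ) with 0.1% DMSO over 48 hours. The adults were about 6 months old, and 4 to 6 of their hearts were pooled for each library. Injury rests on the line vmhc:mCherry-NTR, in which the promoter of the ventricular myosin gene vmhc drives a bacterial nitroreductase that turns MTZ into a toxin within ventricular cardiomyocytes. The labels also list wild-type AB fish and heat-shock lines and do not tie a line to a library. An MTZ group without the enzyme is not among the samples, and so drug and ablation cannot be told apart. By its title the series concerns mTOR activity primed by amino acids.

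The proteasome degrades proteins tagged with ubiquitin. Its core particle, the 20S barrel, stacks outer rings of alpha subunits on inner rings of beta subunits, of which psmb5, psmb6 and psmb7 carry the catalytic sites. The 19S cap recognises the ubiquitin tag, removes it and threads the unfolded substrate into the barrel with a ring of ATPases. In mammals, interferon signalling replaces the catalytic subunits with psmb8, psmb9 and psmb10, giving the immunoproteasome, which together with the activator PA28 (psme1 and psme2) makes peptides for MHC class I. In heart muscle the system clears damaged and surplus sarcomere proteins. The roles given below are known mainly from yeast and mammals.

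Total counts ranged from 10868019 to 26628897 per library, and the cardiomyocyte markers were present in every library, at a summed 5108 to 5173 CPM (read counts normalised to library size) in young, 64410 to 72370 in control, 23080 to 41540 at 3 dpi and 127700 to 169800 at 7 dpi. The CPM are scaled by trimmed mean of M values (TMM), and the 2 libraries at 7 dpi stood apart in that scaling, with factors of 0.418 and 0.453, against 0.956 to 1.60 in the other 6. Mitochondrially encoded transcripts took 24.7% and 28.2% of counts at 7 dpi, against 7.14% to 15.3% elsewhere. Scaling by library totals instead moved the median log2 fold change of all 19330 genes tested by 0.44 for 3 dpi against control, -1.24 for 7 dpi against control, 0.61 for young against control and -1.68 for 7 dpi against 3 dpi. Library names carry 3 prefixes, of which control and 3 dpi share 1 and young and 7 dpi have 1 each. The labels do not say what a prefix marks. If it marks a batch, batch and group cannot be told apart in the comparisons that involve young or 7 dpi hearts.

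The members together took 0.575% and 0.564% of all counts in young hearts, 0.204% and 0.223% in control hearts, 0.559% and 0.493% at 3 dpi, and 0.228% and 0.205% at 7 dpi. By this share the young and 3 dpi libraries were high, and the 7 dpi libraries overlapped the control libraries. After TMM scaling the summed CPM was 3691 and 3538 in young, 1815 and 2328 in control, 3834 and 3632 at 3 dpi, and 5448 and 4528 at 7 dpi. On that scale every library outside the control group lay above both control libraries, and the 7 dpi libraries were the highest. The direction at 7 dpi against control or 3 dpi therefore depends on the scaling, and values and calls below are with TMM unless library totals are named.

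**Figure D1:**
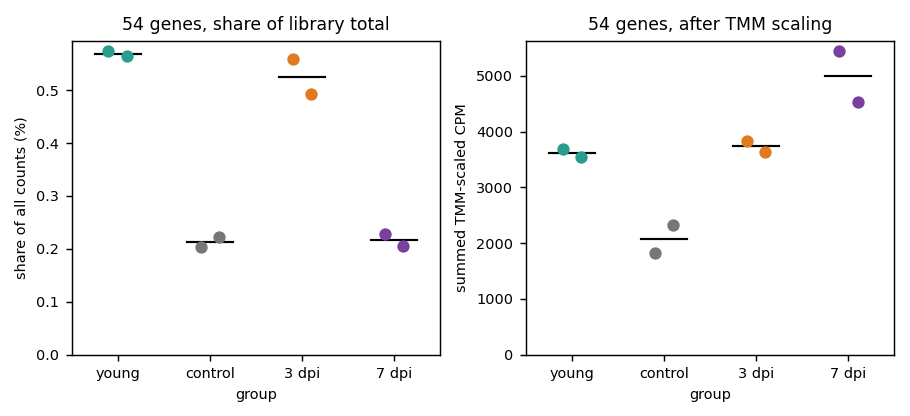
The 54 proteasome genes in each library, as a share of all counts in percent (left) and as summed TMM-scaled CPM (right). Points are the 2 libraries of a group and lines are their means. The share is near 0.2% in both control and 7 dpi libraries, while the summed CPM is 4528 or more at 7 dpi and 2328 or less in control.

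Hearts at 3 dpi had more RNA of most core and cap subunits than control hearts. Of the 53 members tested, 30 rose, which is 56.6%, where 9.05% of all genes tested rose and 15.6% changed in either direction. None fell, where 6.55% of all genes did. The edgeR quasi-likelihood test on which calls rest, with Benjamini-Hochberg adjustment over all genes, gave 0 members lower also at an unadjusted p under 0.05, and DESeq2 and limma gave 0 as well. The median log2 fold change of the members was 0.97, against 0.003 for all genes tested, and it was 1.43 under library totals, where 45 rose and 0 fell, beside 18.2% of all genes higher, 2.78% lower and 21% in either direction. The risers were 5 of 9 alpha ring genes, 6 of 7 constitutive beta genes, 5 of 7 base ATPases, 10 of 12 other 19S genes, 2 of 5 immunoproteasome beta genes and 2 of 6 activator genes. The number of calls rests on few libraries: 7 members rose without the first control library, 11 without the first 3 dpi library, and 13 when only these 4 libraries were fitted. Fewer of all genes tested were called too in each of the fits just named. When only these 4 libraries were fitted, 1823 of 16129 genes were called in either direction, against 3015 of 19330 in the fit of all groups. The median stayed between 0.70 and 1.13 when any 1 of these libraries was left out.

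Hearts at 7 dpi had higher TMM-scaled levels of nearly all subunits than control hearts. Here 44 of 53 members rose (83.0%) and 3 fell (5.66%), where 18.7% of all genes tested rose and 20% fell, 38.7% in all, but under library totals only 6 rose and 7 fell. Under library totals 3.77% of all genes rose and 57.1% fell, 60.9% in all. Their median log2 fold change was 1.19 with TMM, where the median of all genes was -0.13, and -0.05 with library totals, where the median of all genes was -1.37. Relative to the median gene, the members were thus 1.32 higher on the log2 scale under either scaling. Of the 53, 49 lay above the median gene in both. A change of scaling moves nearly all genes by about the same amount, so this match was fixed in advance. It is no separate support for a rise. The 6 that rose under both scalings were psma5, psmb2, psmb4, psmb6, psmd4a and psme3. The 3 that fell with TMM were psme4a, psme4b and psmc3ip. They fell under library totals too, where the values of nearly all genes moved down. The number of fallers was 1 in the fit without the young libraries and 1 without the first control or the second 7 dpi library.

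Young hearts differed from adult control hearts in both directions. Of the 53 members, 26 rose (49.1%) and 11 fell (20.8%), where 32.6% of all genes tested rose and 27.6% fell, 60.2% in all. All 7 constitutive beta genes rose, and all 5 immunoproteasome beta genes tested fell, with a median log2 fold change of -5.65 in that class. The whole set had a median of 0.72, against 0.14 for all genes, and library totals raised it to 1.35 with 34 higher and 9 lower, beside 44.7% of all genes higher and 17.5% lower, 62.2% in all. The median was 0.37 without the first control library and 0.94 without the second, while the counts remained between 21 and 27 higher and between 9 and 12 lower.

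Between the adult injury times, TMM scaling placed 17 of 53 members higher (32.1%) and 5 lower (9.43%) at 7 dpi than at 3 dpi, where 22.8% of all genes tested were higher and 28.1% lower, 50.9% in all. Under library totals 0 were higher and 48 lower, beside 4.47% of all genes higher and 67.6% lower, 72.1% in all, so the direction of most members is not settled by these files. Limma on the deposited RPM (reads normalised to library totals), which carry the same totals, placed 0 members higher, while DESeq2 gave 19 and the unadjusted p under 0.05 of the TMM fit gave 20. The count of 17 also fell to 6 without the first 7 dpi library, 8 without the second 3 dpi library, 10 without the first 3 dpi library and 12 without the second 7 dpi library. Fewer of all genes tested were called too in each of those fits. The 5 lower at 7 dpi with TMM were psmd7, psmd11b, psme2, psme4a and psmc3ip. They were lower under library totals too, where the values of nearly all genes moved down.

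**Figure D2:**
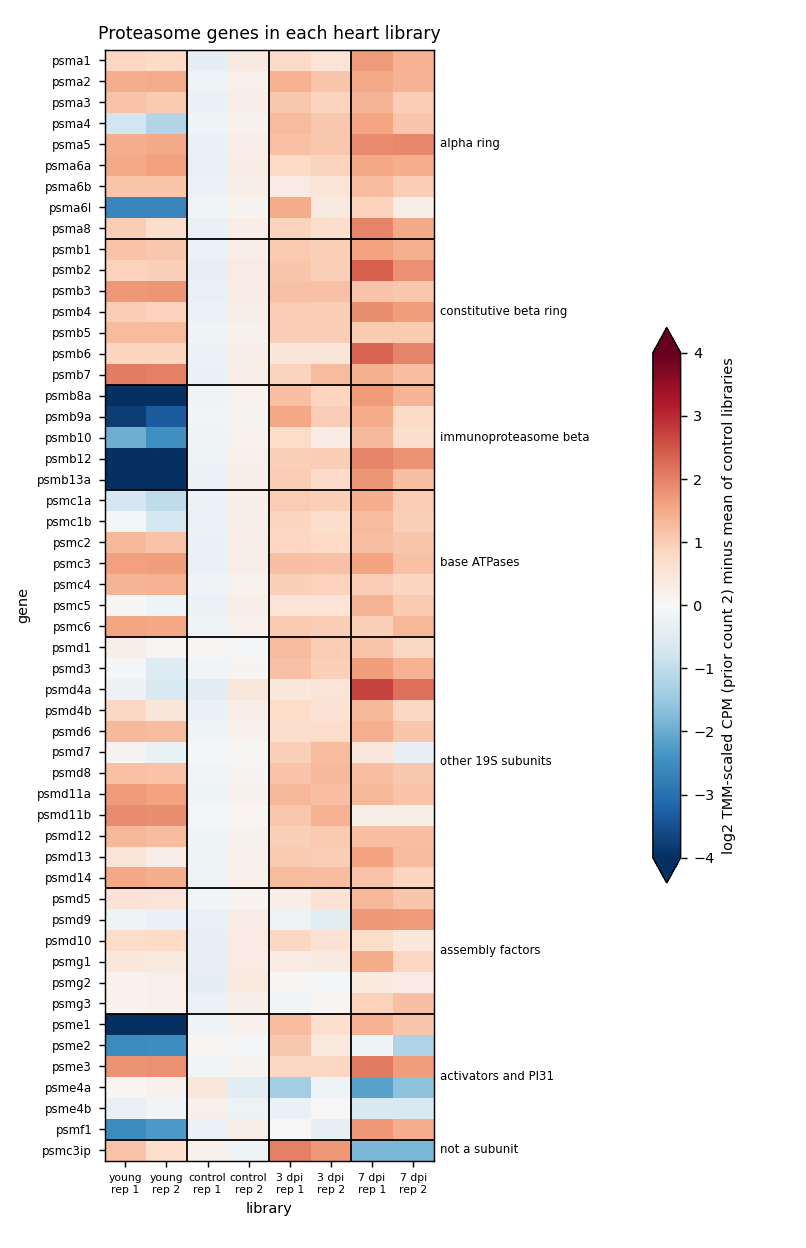
Level of each of the 53 tested members in each of the 8 libraries, as log2 TMM-scaled CPM (prior count 2) minus the mean of the control libraries; rows are grouped by class and columns by group, and colours saturate beyond 4. The immunoproteasome beta rows, psme1, psme2, psmf1 and psma6l are blue in young libraries, and most other rows are red at 3 and 7 dpi. The red at 7 dpi is on the TMM scale, and under library totals only 6 members were higher there.

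In the outer ring, psma2 was among the 4 members that rose most at 3 dpi. It measured 69.8 and 71.6 CPM in young, 22.3 and 29.4 in control, 67.2 and 55.7 at 3 dpi, and 73.2 and 67.8 at 7 dpi, and the control libraries lay below all others. Its log2 fold change at 3 dpi over control was 1.25 (SE 0.22, edgeR adjusted p = 0.00469). The gene psma5 measured 128 and 133 CPM in young, 38.9 and 56.5 in control, 106 and 98.1 at 3 dpi, and 173 and 176 at 7 dpi, and rose by 1.87 (SE 0.23) at 7 dpi over control, or by 0.63 under library totals. Young hearts had less of 2 alpha genes. The level of psma4 was 27.3 and 20.9 CPM in young and 41.5 and 52.6 in control, a log2 fold change of -0.97 (SE 0.24, edgeR adjusted p = 0.00606), which was -0.35 with no call under library totals and -0.78 with no call without the second young library. At 3 dpi psma4 had 112 and 98.9 CPM, and at 7 dpi 141 and 102 CPM. The gene psma6l, a further psma6-type gene beside psma6a and psma6b, measured 1.71 and 1.68 CPM in young, 10.3 and 11.8 in control, 30.9 and 14.3 at 3 dpi, and 20.9 and 12.9 at 7 dpi. It fell by 2.70 (SE 0.41, edgeR adjusted p = 0.000259) in young against control, whereas psma6a rose there, with 62.1 and 66.7 CPM in young, 17.5 and 26.4 in control, 37.1 and 39.6 at 3 dpi, and 62.9 and 59.4 at 7 dpi. The level of psma6b was 52.8 and 52.6 CPM in young, 20.6 and 29.1 in control, 30.8 and 35.0 at 3 dpi, and 57.4 and 48.2 at 7 dpi. The highest mean CPM of the ring belonged to psma8, which RefSeq also lists under the name psma7, with 156 and 129 CPM in young, 65.3 and 96.4 in control, 149 and 130 at 3 dpi, and 309 and 229 at 7 dpi. Read numbers also reflect gene length, so that these ranks say nothing of the relative abundance of subunits.

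In the inner ring, psmb7, the subunit with trypsin-like activity, was the member that rose most in young hearts. It had 201 and 197 CPM in young, 40.0 and 58.4 in control, 90.2 and 116 at 3 dpi, and 130 and 111 at 7 dpi. Young libraries stood above the rest, and the change over control was 2.02 (SE 0.25, edgeR adjusted p = 6.92e-05). The noncatalytic psmb3 had 154 and 155 CPM in young, 36.9 and 56.9 in control, 104 and 103 at 3 dpi, and 100.4 and 97.5 at 7 dpi, with log2 fold changes over control of 1.72 in young and 1.14 at 3 dpi. For psmb6, the subunit with caspase-like activity, the 7 dpi libraries were the high ones. It had 84.8 and 84.4 CPM in young, 39.2 and 55.5 in control, 64.8 and 64.7 at 3 dpi, and 234 and 183 at 7 dpi. It rose at 7 dpi over control by 2.14 (SE 0.24, edgeR adjusted p = 0.000304) with TMM and by 0.89 under library totals, and did not pass at 3 dpi, with 0.45 (SE 0.23). Against 3 dpi the 7 dpi value was 1.69 higher with TMM and -0.02 with library totals. The noncatalytic psmb2 likewise was highest at 7 dpi, with 89.7 and 91.1 CPM in young, 37.2 and 59.2 in control, 102 and 90.7 at 3 dpi, and 246 and 166 at 7 dpi, a change of 2.09 (SE 0.28) over control or 0.85 under library totals. By contrast psmb5, the subunit with chymotrypsin-like activity, had 119 and 119 CPM in young, 44.3 and 55.4 in control, 98.0 and 98.2 at 3 dpi, and 103 and 103 at 7 dpi. Its 7 dpi and 3 dpi libraries had no call between them with TMM, and 7 dpi was lower by a log2 fold change of -1.62 under library totals. The noncatalytic psmb4 had 147 and 139 CPM in young, 62.4 and 87.1 in control, 150 and 147 at 3 dpi, and 269 and 237 at 7 dpi, which was 1.76 higher (SE 0.23) at 7 dpi than in control with TMM and 0.52 higher under library totals.

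The 5 immunoproteasome beta genes that passed the filter had lower levels in young hearts than in control hearts, and all 5 were read in every adult library. The level of psmb8a, the counterpart of psmb5, was 0.186 and 0.129 CPM in young, 27.0 and 33.0 in control, 68.6 and 54.8 at 3 dpi, and 98.3 and 76.5 at 7 dpi. Those young values rest on 5 and 4 reads, against 329 and 560 reads in control. Young, control, 3 dpi and 7 dpi libraries of psmb8a did not overlap on this scale. The log2 fold change was -7.53 (SE 0.35, edgeR adjusted p = 3.2e-07) in young, 1.04 (SE 0.23, edgeR adjusted p = 0.0134) at 3 dpi and 1.54 (SE 0.23) at 7 dpi, each against control. The 3 dpi rise of psmb8a was 0.85 with adjusted p = 0.0704 without the first control library and 0.87 with adjusted p = 0.0951 without the first 3 dpi library. The 7 dpi value was 0.29 with no call under library totals.

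The other genes of the class fell in young hearts too. The gene psmb9a, counterpart of psmb6, measured 0.446 and 0.645 CPM in young, 6.88 and 8.14 in control, 22.3 and 14.9 at 3 dpi, and 21.2 and 12.95 at 7 dpi. It fell by 3.76 (SE 0.41) in young and rose by 1.30 (SE 0.34, edgeR adjusted p = 0.0269) at 3 dpi, the largest rise of any called member at that time. That call was lost without the first control (1.14, adjusted p = 0.111), the second control (1.44, adjusted p = 0.0991) or the first 3 dpi library (0.99, adjusted p = 0.198). At 7 dpi psmb9a was 1.18 higher than control with TMM and -0.08 under library totals, and it had no call without the first control (1.04) or the first 7 dpi library (0.76). The gene psmb12, which RefSeq also names beta1t, measured 0.0743 and 0.258 CPM in young, 7.70 and 10.2 in control, 17.4 and 17.4 at 3 dpi, and 34.6 and 30.8 at 7 dpi. Its young libraries held 2 and 8 reads, and those of psmb13a, also named beta2ta, held 5 and 3. The level of psmb13a was 0.186 and 0.0967 CPM in young, 9.01 and 12.4 in control, 21.1 and 18.1 at 3 dpi, and 36.6 and 24.2 at 7 dpi. In young hearts psmb12 changed by -5.65 (SE 0.42) and psmb13a by -6.21 (SE 0.44) against control. The gene psmb10, counterpart of psmb7, had the smallest fall of the class in young, at 6.13 and 4.26 CPM, against 21.5 and 26.3 in control, a change of -2.21 (SE 0.30, edgeR adjusted p = 0.000125). It had 39.5 and 29.1 CPM at 3 dpi, where its 0.52 (SE 0.28) did not pass, and 58.7 and 38.5 at 7 dpi, where it rose by 1.02 with TMM and was -0.24 under library totals. Its 7 dpi call was lost without the first control (0.86) or the first 7 dpi library (0.66). At 3 dpi psmb12 (0.96) and psmb13a (0.87) did not pass either, with adjusted p = 0.0531 and 0.0738.

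**Figure D3:**
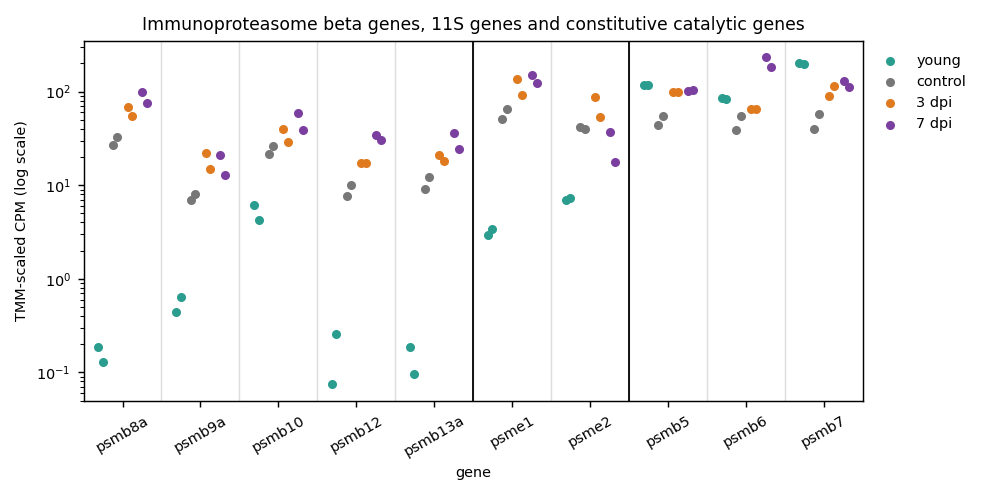
TMM-scaled CPM on a log axis of the 5 immunoproteasome beta genes tested, psme1 and psme2, and the constitutive catalytic genes psmb5, psmb6 and psmb7, with 2 points per group. Young libraries hold 0.0743 to 6.13 CPM of the immunoproteasome beta genes and 84.4 to 201 CPM of the constitutive ones.

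In the RefSeq gene table of the assembly GRCz12tu, psmb8a, psmb13a, psmb12 and psmb9a stand next to each other, between the MHC class I gene mhc1uba and the peptide transporter gene tap2a. The spans of psmb8a and psmb13a overlap there, as do those of psmb13a and psmb12, and whether the submitters' counting used strand, the sources used here do not say, so that reads from the overlaps may not be told apart. Outside this cluster, psmb10, psme1 and psme2 were also lower in young hearts. Ratios of counts within 1 library do not depend on scaling. The 5 immunoproteasome beta genes together had 0.0173 and 0.0135 counts per count of psmb5, psmb6 and psmb7 in young, 0.584 and 0.532 in control, 0.667 and 0.482 at 3 dpi, and 0.534 and 0.461 at 7 dpi. The young ratio was 36.5-fold lower than the control ratio, and the 3 adult groups overlapped. At 7 dpi psmb8a per psmb5 was 0.956 and 0.742, above the 0.608 and 0.597 in control, while its 3 dpi values of 0.699 and 0.558 lay on either side of control. At 7 dpi psmb9a per psmb6 was 0.0906 and 0.0709, below the 0.175 and 0.147 in control. Likewise psmb12 per psmb6 was 0.148 and 0.1686, below 0.1962 and 0.183. At 7 dpi the other pairs overlapped control: psmb10 per psmb7 was 0.4518 and 0.3465, against 0.5389 and 0.4505 in control. For psmb13a per psmb7 the values were 0.2815 and 0.2181, against 0.2254 and 0.2121. At 3 dpi psmb9a per psmb6 was 0.3438 and 0.2303 and psmb12 per psmb6 was 0.2679 and 0.2697, both above control. The 3 dpi values of psmb10 per psmb7, 0.4377 and 0.252, lay below control. Those of psmb13a per psmb7, 0.2343 and 0.1563, lay on either side of control.

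Among the base ATPases, which unfold the substrate, 5 of 7 rose at 3 dpi and 4 of 7 in young hearts, and all 7 rose at 7 dpi with TMM but 0 under library totals, where their median was -0.09. DESeq2 also gave 7 at 7 dpi, and limma on RPM gave 0. Of all genes tested, 9.05% rose at 3 dpi, 32.6% in young and 18.7% at 7 dpi with TMM. Under library totals 3.77% of them rose at 7 dpi. In young hearts psmc3, one of the risers, had 170 and 175 CPM, against 45.6 and 66.2 in control. It had 126 and 124 CPM at 3 dpi and 167 and 125 at 7 dpi. The member of the class that fell in young was psmc1a, at 29.4 and 23.3 CPM in young, 39.9 and 56.4 in control, 95.6 and 92.8 at 3 dpi, and 130.1 and 95.4 at 7 dpi. In young against control this was a change of -0.87 (SE 0.25, edgeR adjusted p = 0.0111) that was -0.25 with no call under library totals. It had no call either without the second young (-0.70) or the second control library (-0.60). Its paralog psmc1b had 28.3 and 17.8 CPM in young, 24.4 and 34.5 in control, 52.4 and 47.1 at 3 dpi, and 69.3 and 56.1 at 7 dpi, and young and control overlapped. The level of psmc5 was 90.9 and 78.3 CPM in young, 75.5 and 104 in control, 130.1 and 130.3 at 3 dpi, and 227 and 183 at 7 dpi, with a young difference from control of -0.09 (SE 0.23) with TMM and 0.53 under library totals.

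Of the 12 other 19S subunits, 10 rose at 3 dpi over control, where 9.05% of all genes did. The lid subunit psmd11a measured 72.5 and 67.2 CPM in young, 19.7 and 24.6 in control, 55.6 and 50.4 at 3 dpi, and 55.8 and 48.2 at 7 dpi, and the control libraries lay below all others. At 3 dpi it was 1.26 higher than in control (SE 0.21, edgeR adjusted p = 0.00373). The rise of psmd14, the deubiquitinase of the lid, was 1.23 (SE 0.22), with 78.0 and 75.5 CPM at 3 dpi and 27.7 and 37.5 in control. The lid subunit psmd8 had 127 and 124 CPM in young, 51.4 and 60.9 in control, 123 and 137 at 3 dpi, and 128 and 118 at 7 dpi, and rose by 1.21 (SE 0.20) at 3 dpi. The scaffold subunit psmd1 rose by 1.15 (SE 0.21) at 3 dpi, with 161 and 136 CPM, against 68.7 and 65.4 in control, and was 81.2 and 69.2 in young hearts, where it did not pass. Together with psma2, psmb3 and psmd11b, these 4 genes were called higher at 3 dpi in all 16 alternative settings tried, and each of the other risers lost its call in at least 1.

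The lid subunits psmd11b and psmd7 were higher at 3 dpi than in control, and lower at 7 dpi than at 3 dpi. The level of psmd11b was 104 and 103 CPM in young, 26.6 and 29.7 in control, 59.2 and 73.6 at 3 dpi, and 33.4 and 33.4 at 7 dpi. It rose by 1.88 (SE 0.20, edgeR adjusted p = 2.83e-05) in young and by 1.24 (SE 0.20) at 3 dpi, and its 7 dpi difference of 0.24 (SE 0.20) did not pass with TMM, while under library totals it was lower than control by a log2 fold change of -1.004. At 7 dpi against 3 dpi it changed by -0.99 (SE 0.20, edgeR adjusted p = 0.0022). The level of psmd7, the lid partner of psmd14, was 14.9 and 11.6 CPM in young, 13.4 and 14.3 in control, 27.0 and 33.5 at 3 dpi, and 18.8 and 10.96 at 7 dpi. The 3 dpi libraries of psmd7 lay above all others, with a rise of 1.13 (SE 0.29, edgeR adjusted p = 0.0265), and the 3 dpi call was lost with any 1 of the 4 libraries left out (0.96 to 1.28, adjusted p = 0.0604 to 0.114). At 7 dpi against 3 dpi psmd7 changed by -1.02 (SE 0.29, edgeR adjusted p = 0.0136), which was -0.87 without the second 3 dpi library and -0.70 without the second 7 dpi library, with adjusted p = 0.0662 and 0.0993. Its difference of 0.10 at 7 dpi over control did not pass with TMM and was -1.16, a fall, under library totals.

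The ubiquitin receptor psmd4 has the paralogs psmd4a and psmd4b in zebrafish, and psmd4a was the member with the largest rise at 7 dpi. It had 7.28 and 5.58 CPM in young, 6.15 and 11.7 in control, 11.5 and 12.1 at 3 dpi, and 56.5 and 39.2 at 7 dpi. The 7 dpi libraries lay above all others, with a change over control of 2.41 (SE 0.34, edgeR adjusted p = 0.000646) or 1.18 under library totals. Its 3 dpi difference did not pass. The level of psmd4b was 48.6 and 38.4 CPM in young, 22.7 and 32.7 in control, 45.7 and 41.0 at 3 dpi, and 69.3 and 48.6 at 7 dpi. Counts of psmd4a per count of psmd4b were 0.150 and 0.145 in young, 0.271 and 0.359 in control, 0.252 and 0.295 at 3 dpi, and 0.815 and 0.807 at 7 dpi. The mean ratio at 7 dpi was 2.60-fold that in control, and the 2 groups did not overlap. The psmd11 paralogs also differed: psmd11a per psmd11b was 1.67 and 1.44 at 7 dpi, against 0.741 and 0.825 in control, 0.940 and 0.685 at 3 dpi and 0.697 and 0.652 in young. For the PA200 pair, psme4a per psme4b was 0.101 and 0.145 at 7 dpi, against 0.348 and 0.250 in control, 0.137 and 0.262 at 3 dpi and 0.384 and 0.353 in young. The ratio of psma6l to psma6a was 0.0275 and 0.0251 in young, 0.589 and 0.446 in control, 0.832 and 0.360 at 3 dpi, and 0.333 and 0.217 at 7 dpi. The young values lay below all others, and the 7 dpi values below both control values. Counts of psmc1a per count of psmc1b were 1.04 and 1.31 in young and 1.63 and 1.63 in control. They were 1.82 and 1.97 at 3 dpi and 1.88 and 1.70 at 7 dpi. For psma6a per psma6b the values were 1.176 and 1.266 in young and 0.8526 and 0.9087 in control. They were 1.207 and 1.134 at 3 dpi and 1.096 and 1.233 at 7 dpi, and both control values lay below all others. Reads that fit both paralogs of a pair may be split or dropped by the submitters' counting; the sources used here do not state how it treats them.

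**Figure D4:**
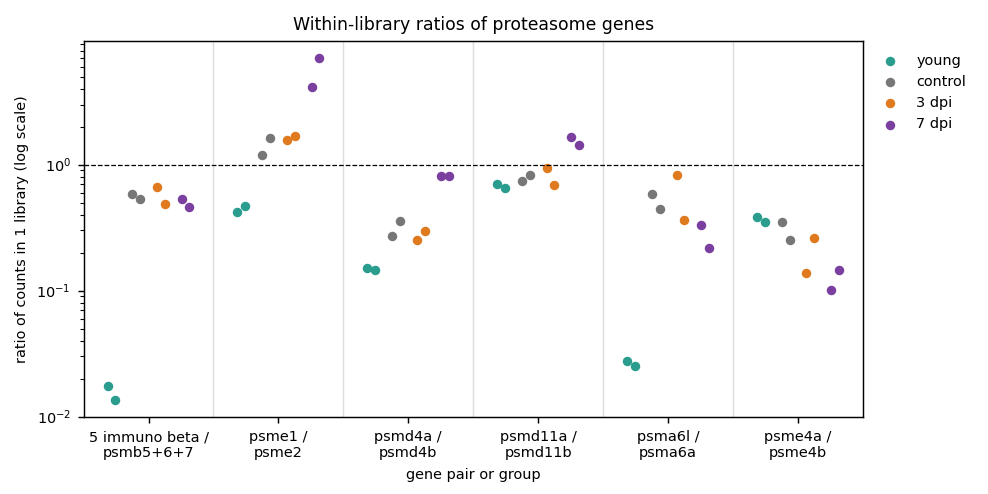
Ratios of counts within each library on a log axis, 2 points per group, for the 5 immunoproteasome beta genes over psmb5, psmb6 and psmb7 and for 5 gene pairs; the dashed line marks equal counts. The first ratio is 0.0173 or less in young libraries and 0.461 or more in adult ones, psme1 over psme2 reaches 4.14 and 7.04 at 7 dpi, and psmd4a over psmd4b is above 0.8 at 7 dpi alone.

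Of the 6 assembly factors, which help build the particle and are mostly absent from the finished one, 0 changed at 3 dpi by the edgeR test. Of all genes tested 15.6% changed there, so 0 of 6 is no sign of a difference from other genes. At an unadjusted p under 0.05 the count was 1 higher, DESeq2 gave 0 and limma on RPM gave 2. At 7 dpi 4 of 6 rose with TMM, where 18.7% of all genes did. Under library totals 0 rose and 1 fell, where 3.77% of all genes rose and 57.1% fell. The base chaperone psmd9 had 16.02 and 14.9 CPM in young, 14.4 and 22.1 in control, 15.3 and 13.2 at 3 dpi, and 59.7 and 58.0 at 7 dpi. The 7 dpi libraries stood above the rest, with 1.68 (SE 0.25, edgeR adjusted p = 0.000801) over control and 2.04 (SE 0.25) over 3 dpi, which were 0.45 and 0.35 with no call under library totals. The core chaperones psmg1 and psmg3 also rose at 7 dpi with TMM, where psmg1 had 27.0 and 26.2 CPM in young, 16.2 and 25.1 in control, 25.6 and 25.9 at 3 dpi, and 56.1 and 35.6 at 7 dpi. At 7 dpi psmg3 had 24.7 and 30.1 CPM, against 10.98 and 15.2 in control. The partner of psmg1, psmg2, had 29.1 and 28.1 CPM at 7 dpi and 16.9 and 29.5 in control, with no call for its 0.30 (SE 0.26) and a value of -0.93, a fall, under library totals. The sixth factor, psmd10 or gankyrin, had 13.3 and 13.8 CPM in young, 6.23 and 10.1 in control, 14.1 and 11.9 at 3 dpi and 13.3 and 10.7 at 7 dpi. In young hearts 0 assembly factors changed by the edgeR test, where the unadjusted p under 0.05 and DESeq2 both gave 2 higher. With TMM 60.2% of all genes changed in young. Under library totals 5 of the 6 rose in young, all but psmd9, where 44.7% of all genes rose.

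The activators went in different directions. The genes psme1 and psme2 encode the partners of PA28, which caps the core in place of the 19S particle. The level of psme1 was 2.97 and 3.42 CPM in young, 50.6 and 65.7 in control, 136 and 92.0 at 3 dpi, and 152 and 124 at 7 dpi. It fell by 4.18 (SE 0.29, edgeR adjusted p = 1.96e-06) in young, rose by 0.97 (SE 0.25, edgeR adjusted p = 0.0261) at 3 dpi, and was 1.25 higher (SE 0.25) at 7 dpi with TMM and -0.002 under library totals. Its 3 dpi call was lost without the first control (0.74), the second control (1.17) or the first 3 dpi library (0.67). The level of psme2 was 7.02 and 7.29 CPM in young, 42.2 and 40.2 in control, 87.3 and 54.1 at 3 dpi, and 36.7 and 17.6 at 7 dpi. It fell by 2.52 (SE 0.35, edgeR adjusted p = 0.000143) in young. Its 0.78 (SE 0.33) at 3 dpi and -0.60 (SE 0.33) at 7 dpi did not pass against control with TMM, the second being -1.88 and a fall under library totals. Between the times psme2 changed by -1.38 (SE 0.33, edgeR adjusted p = 0.00598) at 7 dpi against 3 dpi. The partners thus parted at 7 dpi, where psme1 had 4.14 and 7.04 counts per count of psme2, against 1.2 and 1.63 in control, 1.56 and 1.70 at 3 dpi and 0.423 and 0.469 in young.

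The other PA28 gene, psme3, encodes the nuclear PA28 gamma and ran against its relatives in young hearts. It had 76.2 and 77.3 CPM in young, 20.2 and 23.8 in control, 38.9 and 38.8 at 3 dpi, and 92.8 and 69.7 at 7 dpi, and the control libraries were below all others. It rose by 1.80 (SE 0.22, edgeR adjusted p = 5.43e-05) in young, 0.82 (SE 0.21, edgeR adjusted p = 0.0268) at 3 dpi and 1.89 (SE 0.22) at 7 dpi, or 0.63 at 7 dpi under library totals. The 3 dpi call of psme3 was lost with any 1 of the 4 libraries left out (0.66 to 0.95, adjusted p = 0.0574 to 0.117). The PA200 genes were the ones that fell at 7 dpi. The level of psme4a was 31.9 and 33.4 CPM in young, 40.9 and 21.9 in control, 11.6 and 26.3 at 3 dpi, and 6.76 and 9.55 at 7 dpi. It changed by -1.94 (SE 0.41, edgeR adjusted p = 0.00478) at 7 dpi against control, with both 7 dpi libraries below all others. The level of psme4b was 83.2 and 94.8 CPM in young, 118 and 87.4 in control, 84.9 and 100.3 at 3 dpi, and 66.8 and 65.8 at 7 dpi. Its change of -0.63 (SE 0.22, edgeR adjusted p = 0.0433) at 7 dpi did not pass without the first control library (-0.43) or with either 7 dpi library left out (-0.65). It did not pass either with RLE size factors, another scaling (-0.58), or with the groups compared alone (-0.64). The same held with a replicate block (-0.63) and without the young libraries (-0.63). The gene psmf1, for the regulator PI31, had 4.53 and 5.48 CPM in young, 22.9 and 32.2 in control, 26.7 and 21.4 at 3 dpi, and 91.0 and 73.7 at 7 dpi. It fell by 2.46 (SE 0.26, edgeR adjusted p = 2.32e-05) in young, was -0.20 (SE 0.24) at 3 dpi with no call, and was 1.58 higher (SE 0.25) at 7 dpi with TMM, or 0.34 with no call under library totals.

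**Figure D5:**
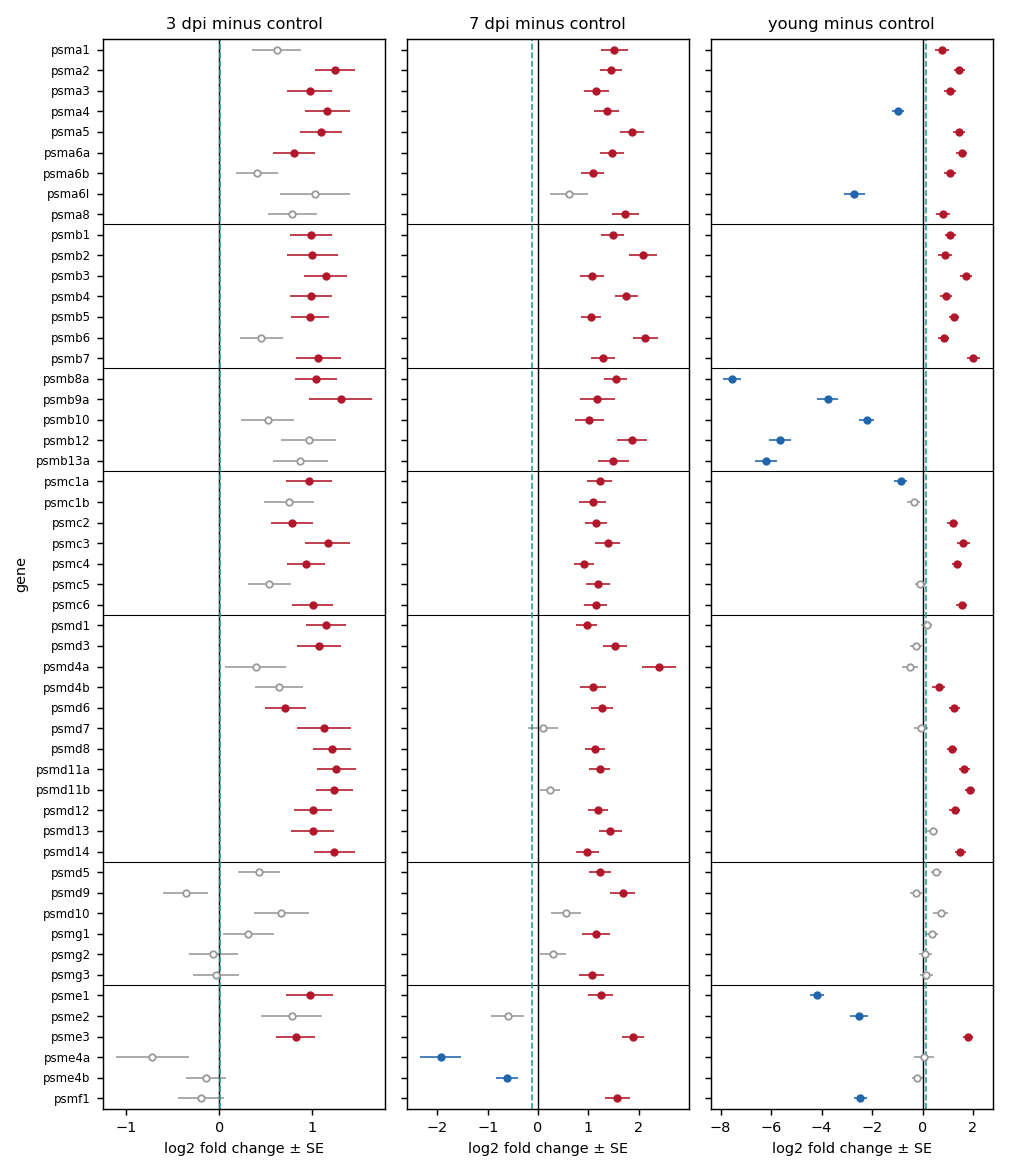
Log2 fold change against control, with its standard error from the edgeR fit on TMM-scaled counts, for 52 members at 3 dpi (left), at 7 dpi (centre) and in young hearts (right), with a different scale in each panel. Filled red points rose, filled blue points fell and open points did not pass; the dashed line is the median of all genes tested and black lines separate the classes. At 3 dpi no point is blue, at 7 dpi psme4a and psme4b are, and in young hearts the immunoproteasome beta genes, psme1, psme2, psmf1, psma6l, psma4 and psmc1a are; under library totals only 6 of the red points at 7 dpi stay called.

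The gene psmc3ip, the member that is no subunit, is read separately. It had 20 and 16 reads in young, 4 and 4 in control, 25 and 23 at 3 dpi, and 0 and 0 at 7 dpi. With a floor of 3 counts summed over both 7 dpi libraries, its pooled level there was 10.1-fold lower than the level observed at 3 dpi. Against the level observed in control it was 2.1-fold lower. The floor covers the counting error of the 0 reads at 7 dpi alone. Counting error of the 48 reads at 3 dpi and of the 8 in control is left out, so neither ratio is a lower bound. Its edgeR call against control was lost with any 1 of those 4 libraries left out.

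Members were compared by group of highest and lowest mean, and the tally turned with the scaling. With TMM-scaled CPM, of the 53 tested, 30 had their highest mean at 7 dpi, 15 in young, 7 at 3 dpi and 1 in control, and 31 had their lowest mean in control, 16 in young, 3 at 3 dpi and 3 at 7 dpi. Under library totals 33 had their highest mean in young, 17 at 3 dpi, 3 at 7 dpi and 0 in control, and 25 had their lowest mean at 7 dpi, 17 in control, 11 in young and 0 at 3 dpi. The same tally over all genes tested was not made, so neither tally shows anything particular to the members. The young, 3 dpi and 7 dpi comparisons share the control libraries, so that calls in several of them are not independent. With TMM, 20 members (37.7%) rose in all 3, of which 19 were core or cap subunits outside the immunoproteasome class, where 1.62% of all genes tested did. Under library totals 5 members (9.43%) did, namely psma5, psmb2, psmb4, psmb6 and psme3, where 0.523% of all genes did. With TMM 28 rose at both 3 dpi and 7 dpi, which is 93.3% of the 30 called at 3 dpi and 63.6% of the 44 called at 7 dpi with TMM. The share of all genes that rose at both times was not counted, so this overlap shows nothing particular to the members. Under library totals 45 members rose at 3 dpi and only 6 at 7 dpi.

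Genes that work with the proteasome were read from lists. Of all genes tested, 32.6% rose in young and 27.6% fell. At 3 dpi 9.05% rose with 6.55% falling, and at 7 dpi 18.7% rose with 20% falling. Under library totals 3.77% of all genes rose at 7 dpi and 57.1% fell. Some of the counts that follow lie near these shares. A list of lid subunits and ubiquitin receptors with symbols outside the psm pattern also held deubiquitinases and other genes, such as usp14, uchl5, ube3c, txnl1 and zfand5a. Its counts therefore do not describe lid subunits and receptors alone. Of its 14 tested genes, 3 rose and 2 fell at 3 dpi, 8 rose (57.1%) and 1 fell at 7 dpi, and 5 rose (35.7%) and 2 fell in young. Under library totals 2 rose and 6 fell at 7 dpi. The deubiquitinase usp14, bound to the cap, had 66.2 and 71.9 CPM in young, 19.3 and 23.5 in control, 51.7 and 55.9 at 3 dpi, and 37.2 and 37.2 at 7 dpi, and was 1.33 higher (SE 0.20, edgeR adjusted p = 0.00244) at 3 dpi and 1.69 higher (SE 0.20) in young. The ubiquitin receptor adrm1 had 56.2 and 47.9 CPM at 3 dpi and 132 and 113 at 7 dpi, against 26.9 and 32.6 in control. In young hearts uchl5, a deubiquitinase of the cap, rose by 1.79 (SE 0.26), with 51.8 and 49.9 CPM, against 13.03 and 16.4 in control, and the shuttle receptor rad23ab fell by 3.01 (SE 0.22), with 6.21 and 5.84 CPM, against 48.4 and 48.9 in control. The list drawn up for assembly outside the pattern had 3 tested genes, pomp, akirin2 and tmem183a. All 3 rose in young and 2 at 7 dpi, where under library totals 1 rose and 2 fell. Whether each of them acts in assembly was not checked. The maturation factor pomp had 82.1 and 80.8 CPM in young, 36.1 and 61.7 in control, 79.0 and 68.4 at 3 dpi, and 296 and 236 at 7 dpi.

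Of 13 tested transcription factors that act on proteasome genes and their regulators, 1 rose at 3 dpi, 2 rose and 6 fell at 7 dpi, and 5 rose (38.5%) and 3 fell (23.1%) in young. Under library totals 0 rose and 11 fell at 7 dpi, where 3.77% of all genes rose and 57.1% fell. With TMM, 32.6% of all genes rose and 27.6% fell in young, 9.05% and 6.55% at 3 dpi, and 18.7% and 20% at 7 dpi. The riser at 3 dpi was nfe2l3, with 75.0 and 79.8 CPM in young, 16.7 and 14.6 in control, 35.5 and 33.6 at 3 dpi, and 11.2 and 18.1 at 7 dpi. The factor nfe2l2a was 18.5 and 14.9 CPM at 7 dpi, against 86.1 and 82.0 in control, a change of -2.33 (SE 0.21, edgeR adjusted p = 0.000172). Of 17 tested genes for ubiquitin supply and the p97 segregase, 5 rose at 3 dpi, 15 at 7 dpi (88.2%), and 9 rose and 6 fell in young. Under library totals 2 rose and 2 fell at 7 dpi. The p97 cofactor nsfl1c had 91.3 and 87.4 CPM at 3 dpi, against 32.4 and 40.2 in control, which was 1.30 higher (SE 0.20, edgeR adjusted p = 0.00288). Of 13 tested genes from a list of muscle ubiquitin ligases that also held murc, 2 rose and 4 fell at 3 dpi. At 7 dpi 6 of these rose and 1 fell, and in young 2 rose and 8 fell. Under library totals 0 rose and 6 fell at 7 dpi. The atrophy ligase fbxo32 had 8.45 and 15.5 CPM at 3 dpi, against 58.6 and 52.6 in control, a change of -2.21 (SE 0.30, edgeR adjusted p = 0.00145).

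Genes of MHC class I loading and of interferon signalling were set beside the immunoproteasome. With TMM, 32.6% of all genes tested rose and 27.6% fell in young, 9.05% and 6.55% at 3 dpi, and 18.7% and 20% at 7 dpi. Some of the 7 dpi counts that follow lie near these shares. In young hearts 3 of 16 tested loading genes rose and 10 fell, and 3 of 17 interferon genes rose and 11 fell. The light chain b2m had 23.8 and 30.6 CPM in young, against 789 and 1049 in control, and the transactivator nlrc5 had 0.297 and 0.290 CPM in young, against 37.4 and 36.1 in control. At 3 dpi 4 loading genes and 5 interferon genes rose, and at 7 dpi 1 loading gene rose and 3 fell while 4 interferon genes rose and 5 fell. Under library totals 13 loading genes and 9 interferon genes fell at 7 dpi and 0 of either rose. On that scale 57.1% of all genes fell and 3.77% rose, so falls there were not particular to these lists. The interferon target gbp1 had 105 and 38.5 CPM at 3 dpi, against 12.1 and 14.3 in control. The signal transducer stat2 had 24.4 and 29.1 CPM at 7 dpi, against 125 and 140 in control, a change of -2.31 (SE 0.22, edgeR adjusted p = 0.000172).

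Markers of other cell types moved with these groups. Of all genes tested, 32.6% rose and 27.6% fell in young, 9.05% and 6.55% at 3 dpi, and 18.7% and 20% at 7 dpi. Under library totals 3.77% rose and 57.1% fell at 7 dpi. The summed level of 18 macrophage markers was 67.0 to 71.5 CPM in young, 542 to 704 in control, 1375 to 3064 at 3 dpi, and 641 to 697 at 7 dpi. Of these markers 16 rose at 3 dpi, all 18 fell in young, and 1 rose and 5 fell at 7 dpi. Falls in young were also found for 14 of 15 cardiomyocyte, 11 of 13 lymphocyte, 9 of 11 erythroid and 6 of 8 endothelial markers. In those lists 1, 0, 2 and 1 markers rose in young, in that order. Of 15 cardiomyocyte markers 2 rose and 2 fell at 3 dpi, and 6 rose and 5 fell at 7 dpi. Under library totals 2 cardiomyocyte markers rose and 6 fell at 7 dpi. Of 13 lymphocyte markers 1 rose and 0 fell at 3 dpi, and 0 rose and 7 fell at 7 dpi. Lymphocyte markers summed to 3.42 to 4.00 CPM in young, 64.2 to 78.0 in control, 102 to 201 at 3 dpi, and 18.4 to 25.4 at 7 dpi, with 3 of 16 listed markers at 0 in young and 1 at 7 dpi. Erythroid markers summed to 74.6 to 96.1 CPM in young, 5902 to 15720 in control, 3260 to 4111 at 3 dpi, and 18480 to 46510 at 7 dpi. Of 11 erythroid markers 4 rose at 7 dpi with TMM, but 0 rose and 2 fell under library totals. Neutrophil markers, unlike the macrophage ones, had a higher sum in young than in control, with 583 to 692 CPM in young, 247 to 534 in control, 302 to 319 at 3 dpi, and 52.9 to 85.7 at 7 dpi. Of these 9 markers 3 rose and 5 fell in young, 4 rose and 2 fell at 3 dpi, and all 9 fell at 7 dpi. Of 13 skeletal muscle markers 10 rose and 2 fell in young. At 7 dpi 8 of them rose with TMM, and 4 rose and 1 fell under library totals. Their sum was 1791 to 1818 CPM in young, 3641 to 5050 in control, 1993 to 3217 at 3 dpi, and 11060 to 13170 at 7 dpi. Of 12 markers of other organs, 7 rose and 2 fell in young and 4 rose at 7 dpi, where 2 rose and 3 fell under library totals. At 3 dpi 1 of 8 endothelial markers rose and 1 fell, and 3 of 10 epicardial and fibroblast markers rose. At 7 dpi 3 endothelial markers rose and 3 fell, and 1 epicardial or fibroblast marker fell. Smooth muscle markers summed to 889 to 1131 CPM in young, 178 to 284 in control, 838 to 891 at 3 dpi, and 1635 to 1983 at 7 dpi. Of 8 such markers 6 rose and 0 fell at 3 dpi and again at 7 dpi, and 4 rose and 2 fell in young. Under library totals 3 rose and 1 fell at 7 dpi. The part of these shifts in the proteasome values was not tested, and in bulk hearts a change in the cells present and a change in RNA per cell cannot be told apart.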

How the data were processed

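Bulk RNA sequencing of pooled zebrafish hearts gave 8 libraries in 4 groups. The authors deposited raw read counts per gene, made with TopHat2 2.0.13, HTSeq and the build GRCz10 per the submitters' processing notes. They also deposited RPM values for the adult libraries, which equal the counts divided by library totals for 100% of 23350 genes (relative tolerance 1e-04). For the annotation release and the strand setting, the sources used here state nothing.

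The main test was edgeR 4.0.16 (R 4.3.3): filterByExpr (19330 genes kept), TMM scaling, 1 fit of all 8 libraries with a coefficient per group, quasi-likelihood F tests on 4 residual degrees of freedom, and Benjamini-Hochberg adjustment over all genes tested with a threshold of 0.05. Standard errors were back-calculated from the test statistic. Levels are CPM scaled by TMM. Alternatives used library totals, other scalings and filters, DESeq2 1.42.0, limma 3.58.1 on log2(RPM + 1) or log2(RPM + 0.1), the groups compared alone, a replicate block, and fits without a library or group. Nothing in the labels says that the 2 libraries of a group came from separate clutches, so p-values cannot be read as measuring spread between clutches. They rest on the spread between libraries within all 4 groups, which the quasi-likelihood fit moderates with values from other genes. They do not measure the spread of the compared libraries alone. An exact permutation test of 2 against 2 libraries cannot give p under 0.333.

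Members, classes and partner lists were chosen with earlier results of these data known. Any member could be named. Values in every library are given for the 4 called members with the largest rise or fall in a comparison, immunoproteasome members, paralog pairs and the highest and lowest of a class by mean CPM. Further members, some with 2 groups' values only, were chosen after their values were seen. Of the partner lists, the 3 genes with the smallest p per comparison or the gene with the highest CPM could be named. On simulated counts the test called 2% to 7% of genes changed 2-fold and 50% to 67% of those changed 4-fold. It made 0 calls of the wrong sign. Only 200 of 19330 genes were changed there, while 15.6% to 60.2% of genes were called in these data. The adjusted threshold was thus stricter in the simulation, and its rates do not give the share missed here.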

Additional observations from a re-analysis of the deposited data

Results flagged for a closer look

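A group of 5 members was lower at 7 dpi than at 3 dpi with TMM scaling. The test was a direct edgeR quasi-likelihood test between the injury times with Benjamini-Hochberg adjustment. They were lower under library totals too, but that scaling moved the median gene by -1.68 and placed 48 members lower. A member lower with TMM was thus bound to be lower there, and the match adds no support. The 5 are 9.43% of the 53 tested, below the 28.1% of all genes lower with TMM and the 67.6% under library totals. The count is therefore no sign that members were lower more often than other genes. The log2 change with TMM was -7.603 for psmc3ip (SE 1.384, adjusted p = 0.00155), a fitted value against 0 reads at 7 dpi that depends on the prior count. For psmd11b it was -0.993 (SE 0.201, adjusted p = 0.0022), with -2.681 under library totals. The lid subunit psmd7 gave -1.025 (SE 0.292, adjusted p = 0.0136), with -2.726 under library totals. The PA28 gene psme2 gave -1.381 (SE 0.334, adjusted p = 0.00598), with -3.105 under library totals. The PA200 gene psme4a gave -1.218 (SE 0.409, adjusted p = 0.0289), with -2.883 under library totals, and the TMM value was -0.52 without the second 3 dpi library and -0.993 without the first 7 dpi library, with no call in either.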

How the results depend on the processing

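Library totals reversed the median log2 fold change of the members at 7 dpi. Against control it was -0.053, with 6 higher and 7 lower, and against 3 dpi it was -1.333, with 0 higher and 48 lower. Limma on log2 RPM gave, against control, 3 higher, 6 lower and -0.051 with a pseudocount of 1, and 2, 7 and -0.052 with 0.1; against 3 dpi it gave 0 higher, 47 lower and -1.312, and 0, 44 and -1.327. The 3 dpi median over control was 1.426, 1.326 and 1.394 under library totals and these pseudocounts, and the young median was 1.354 under library totals. Fitting only the groups compared left 13 members higher at 3 dpi and 1 lower at 7 dpi. Without the young libraries, an alternative added after the data were seen, 1 was lower at 7 dpi. With replicate number as a block, 28 members were higher at 3 dpi and 1 lower at 7 dpi. Deviations of same-numbered libraries correlated between -0.14 and 0.068. With 2 libraries per group this cannot show whether the numbers mark a shared clutch or preparation. The replicate numbers of the control libraries disagree between the deposited counts and RPM, and those of the counts are used here.

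Leaving out 1 library gave 7 to 25 higher, 0 to 1 lower and a median of 0.702 to 1.133 at 3 dpi; 37 to 45 higher, 1 to 2 lower and 1.008 to 1.429 at 7 dpi; 21 to 27 higher, 9 to 12 lower and 0.371 to 0.937 in young; and 6 to 12 higher, 3 to 5 lower and 0.181 to 0.447 at 7 dpi against 3 dpi. Under library totals, 27 of the 49 members with a positive value at 7 dpi against control, and 35 of the 38 against 3 dpi, turned negative. How many of all genes tested turned was not counted. Among those whose values the text gives, the values under library totals, pseudocount 1 and pseudocount 0.1, in that order, were as follows at 7 dpi against control: psmd11b at -1.004, -0.958 and -1; psmd7 at -1.161, -1.078 and -1.186; psmb9a at -0.077, -0.091 and -0.105; psmb10 at -0.236, -0.244 and -0.255; psme1 at -0.002, -0.003 and -0.003; psmg2 at -0.929, -0.848 and -0.892. Against 3 dpi psmb6 was -0.015, -0.019 and -0.019. In young, psmc5 was 0.533 under library totals. Why the settings differ was not tested. A planned correction for protein length was not run. With 2 libraries per group, simulated 2-fold changes were mostly missed. That simulation changed 200 of 19330 genes, a smaller share than was called in these data, so it does not give the share missed here.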
